A study of Mus musculus with 2 samples.

Results

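Integrin chain genes were read in alveolar macrophages, the resident phagocytes of the lung air spaces, of 2 mouse genotypes. The 10 genes were Itgax, Itgam, Itgal, Itga4 and Itgav, which encode alpha chains, and Itgb1, Itgb2, Itgb5, Itgb7 and Itgb8, which encode beta chains. They were taken by name, and all 10 were found among the 22180 genes with a feature that carries a single gene symbol. The first array was labelled Lysm-Cre Ssu72fl/fl, from mice in which Cre recombinase meets a floxed Ssu72 allele. The second was labelled Lysm-Cre, from mice with the same Cre for which no floxed allele is named. Cre in such mice is driven by the lysozyme 2 promoter, which is active in myeloid cells beyond alveolar macrophages. All mice were aged 8 to 10 weeks, and both RNAs came from flow-sorted cells put straight into Trizol. There was 1 array for each genotype, and the sources used here do not say whether it held 1 mouse or a pool. No test between genotypes was therefore possible, and the precision of every value is limited by the number of arrays.

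Integrins are membrane receptors made of 1 alpha and 1 beta chain, and a chain reaches the cell surface mostly as part of such a pair. In leukocytes, talin and kindlin bind the cytoplasmic tail of the beta chain and switch the receptor into its binding state, and the bound receptor signals back through Src family kinases and Syk. The beta2 family takes leukocytes across vessel walls and into phagocytosis. The alpha4 chain binds VCAM-1 and MAdCAM-1 through its beta1 and beta7 partners. The alphaV chain binds proteins with the RGD tripeptide, among them the latent form of TGF-beta, a cytokine that alveolar macrophages need for their maintenance. High surface CD11c, the product of Itgax, with low CD11b, the product of Itgam, is the usual mark of mouse alveolar macrophages.

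Itgam, Itgax and Itgad, which encode 3 alpha chains of the beta2 family, follow each other on mouse chromosome 7 in the RefSeq annotation, with no other protein-coding gene between them. The signal of Itgax ranked near the top of all genes here and that of Itgam far lower, so the upstream sequences of these 2 neighbours are shown. Those of Itgb1, Itgb5 and Itga4 are shown because these genes were lower on the array labelled Ssu72fl/fl than most genes of their signal. Each sequence is the 250 bases before the gene's start in the RefSeq promoter table, build GRCm38.p6. Capitals mark every match, on either strand, to GAGGAA (the core bound by the myeloid factor PU.1), GGGCGG (the GC box of Sp1) or TGANTCA (the AP-1 element), and no matches overlapped.
Itgax, chr7:128129300-128129549, plus strand: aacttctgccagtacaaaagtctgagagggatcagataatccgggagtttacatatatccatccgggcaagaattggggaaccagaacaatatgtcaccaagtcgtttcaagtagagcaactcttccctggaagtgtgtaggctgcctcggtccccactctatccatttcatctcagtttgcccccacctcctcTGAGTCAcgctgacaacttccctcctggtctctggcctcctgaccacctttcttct
Itgam, chr7:128062390-128062639, plus strand: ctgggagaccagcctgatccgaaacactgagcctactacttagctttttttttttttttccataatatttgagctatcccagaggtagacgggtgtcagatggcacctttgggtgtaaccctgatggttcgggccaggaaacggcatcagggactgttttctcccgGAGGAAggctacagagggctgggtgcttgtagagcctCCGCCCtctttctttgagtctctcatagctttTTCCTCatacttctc
Itgb1, chr8:128685404-128685653, plus strand: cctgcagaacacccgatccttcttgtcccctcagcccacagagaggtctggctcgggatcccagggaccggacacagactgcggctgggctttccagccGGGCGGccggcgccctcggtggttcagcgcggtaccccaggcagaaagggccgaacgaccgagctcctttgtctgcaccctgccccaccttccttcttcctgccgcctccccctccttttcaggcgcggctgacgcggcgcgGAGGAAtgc
Itgb5, chr16:33829415-33829664, plus strand: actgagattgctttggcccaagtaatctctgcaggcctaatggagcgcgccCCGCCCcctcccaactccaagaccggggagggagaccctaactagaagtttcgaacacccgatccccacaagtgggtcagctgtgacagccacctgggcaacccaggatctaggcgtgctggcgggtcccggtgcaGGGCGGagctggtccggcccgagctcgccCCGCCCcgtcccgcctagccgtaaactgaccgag
Itga4, chr2:79255176-79255425, plus strand: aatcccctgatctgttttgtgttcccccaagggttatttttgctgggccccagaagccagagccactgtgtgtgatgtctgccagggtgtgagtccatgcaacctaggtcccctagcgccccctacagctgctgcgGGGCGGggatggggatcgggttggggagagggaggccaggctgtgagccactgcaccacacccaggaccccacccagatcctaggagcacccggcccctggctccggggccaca
Of the 10 genes, 8 had an entry in this table. GAGGAA was found at 84 and 15 bases before the start of Itgam at 9 bases before that of Itgb1, and at 218 and 7 bases before that of Itgav, whose window is not shown, counted to the left end of the match. It was in 23.3% of all 32851 upstream windows. Itgax held a match to TGANTCA at 56 bases, a motif in 6.75% of all windows. Itgb5 held GGGCGG at 199, 63 and 34 bases, Itga4 at 114, Itgb1 at 151 and Itgam at 47. The windows of Itgax, Itgav, Itgb7 and Itgb8 held no GGGCGG. Of all windows, 32.7% held at least 1 match to it. A match is a string of letters in a window, and none of these windows was measured here.

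The targeted gene did not check the label. Ssu72 read 4.998 on the array labelled Ssu72fl/fl and 4.862 on the Lysm-Cre array. The sources used here do not give the place of its probes relative to the floxed part. Directions below therefore rest on the genotype labels. Values are the log2 signals deposited by the authors, 1 feature per gene, and a difference is the array labelled Ssu72fl/fl minus the Lysm-Cre array. The floor is the median of all values, 4.65, and 13015 genes with a value above it on 1 or both arrays were compared. Alveolar macrophage marker genes other than Itgax ranged widely in signal. Chil3 read 9.30 on the array labelled Ssu72fl/fl and 9.42 on the Lysm-Cre array, and Plet1 8.38 and 8.68 in that order. Siglecf was far dimmer, at 5.09 and 5.18 (rank 3917), as were Fabp4, at 5.24 and 5.06 (rank 3806), and Krt19, at 5.27 and 5.39 (rank 2598), in the same order. All 15 alveolar macrophage markers in use passed the floor. The difference between the arrays varied with signal. Its median was 0.0080 in genes with a mean level from 4 to 5, -0.031 from 5 to 6, -0.19 from 6 to 7, -0.42 from 7 to 8 and -0.49 from 8 to 9. Each integrin is therefore set beside the 200 genes nearest to it in mean signal, with their median difference and their robust SD (a scaled median absolute deviation), here called the spread. The spread describes scatter between genes, not between mice.

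Most integrin chain genes had a lower signal on the array labelled Ssu72fl/fl. Of the 10, 9 were lower and 1, Itgb8, was higher, against 51.9% lower and 48.1% higher among all compared genes. Their median difference was -0.27, against -0.0068 over all compared genes. None reached 1.5-fold, a size that 1.37% of compared genes reached downwards and 0.315% upwards, nor 2-fold (0.0845% downwards, 0.0307% upwards). A difference of at least 0.32 on the log2 scale was found in 5 integrins downwards and in 0 upwards, against 6.23% and 2.06% of compared genes. The 7 integrins with a mean level over 5, a cut set after the values were seen, were all lower, against 59.8% of the 5319 genes above that level. Set against genes of their own signal, 3 integrins (Itgb1, Itgb5 and Itga4) lay more than 1 spread below the local median, as 16.8% of compared genes did. Only Itgb8 of the 10 lay more than 1 spread above, as 15.7% did. Itgb8 passed the floor on the array labelled Ssu72fl/fl alone, so its difference could only be above 0. Its place above the spread is therefore not read as a result.

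**Figure D1:**
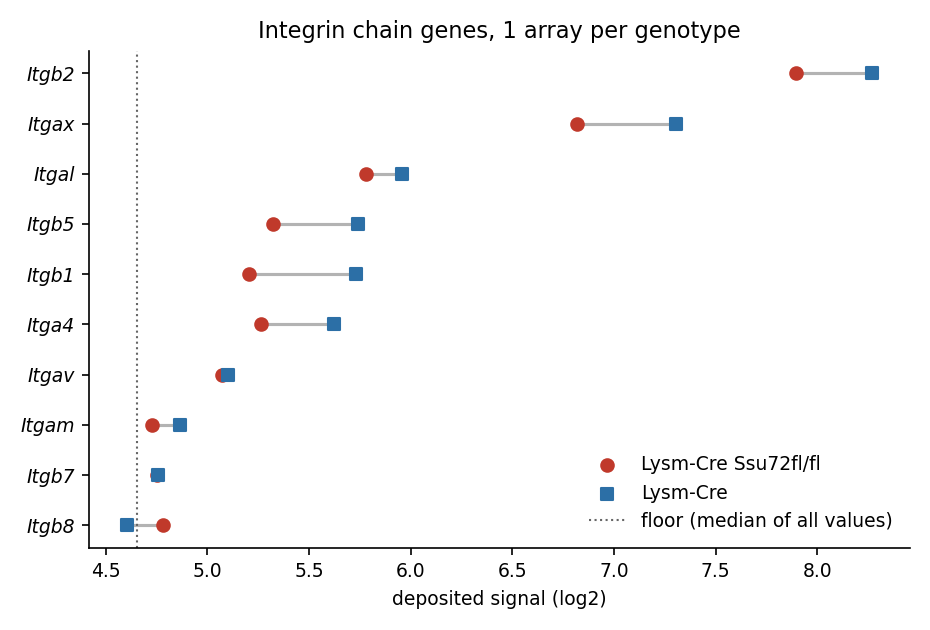
Deposited log2 signal (horizontal axis) of the 10 integrin chain genes on the Lysm-Cre Ssu72fl/fl array (red circles) and the Lysm-Cre array (blue squares), ordered by mean signal, with the floor as a dotted line. Itgb2 and Itgax lie far to the right of the others, and only Itgb8 has its red point on the right.

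The beta2 family of leukocytes held the brightest chains. Itgb2 encodes CD18, the beta chain shared by LFA-1, Mac-1 and the CD11c receptor. It read 7.90 on the array labelled Ssu72fl/fl and 8.27 on the Lysm-Cre array, a difference of -0.38. By mean signal it ranked 101 of 22180 genes. The 200 genes nearest in level, from 7.05 to 9.10, had a median of -0.44 and a spread of 0.29, and 91.5% of them were lower. Itgb2 was thus 0.068 above its local median, well inside the spread.

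Itgax, the CD11c chain, ranked 250, at 273 on the array labelled Ssu72fl/fl and 238 on the Lysm-Cre array. It read 6.82 on the array labelled Ssu72fl/fl and 7.31 on the Lysm-Cre array, a difference of -0.49 or a 1.40-fold lower signal. Its local median was -0.37 with a spread of 0.30, so the offset from genes of like signal was -0.12. The 2 genes nearest to Itgax in both values were Cd83 at 6.83 and 7.28 and Atpif1 at 6.86 and 7.32, array labelled Ssu72fl/fl first. For Itgb2 they were Snord13 at 7.82 and 8.26 and Gapdh at 7.81 and 8.31, in the same order. These likenesses rest on 2 arrays and on the distance between value pairs alone.

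Itgal encodes CD11a, the alpha chain of LFA-1, which binds ICAM-1. It read 5.78 on the array labelled Ssu72fl/fl and 5.96 on the Lysm-Cre array and ranked 1030. The difference of -0.18 lay beside a local median of -0.10 and a spread of 0.25. Itgam, the CD11b chain of Mac-1, which binds the complement fragment iC3b, read 4.73 on the array labelled Ssu72fl/fl and 4.87 on the Lysm-Cre array. It ranked 8573, close above the floor on both arrays. Its difference of -0.14 lay 0.11 below a local median of -0.023, inside a spread of 0.13. Itgad, the next gene after Itgax, read 4.65 on the array labelled Ssu72fl/fl and 4.54 on the Lysm-Cre array, below the floor on both. Of these 3 neighbours on chromosome 7, Itgax alone was bright. Itgb2, Itgax, Itgal and Itgam all lay within the spread of their level.

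The differences that left the spread of their level downwards lay in chains of medium signal, with Itgb1 at the lower end. Itgb1 encodes the beta1 chain, the partner of alpha4, alpha5, alphaV and many matrix-binding alpha chains. It read 5.20 on the array labelled Ssu72fl/fl and 5.73 on the Lysm-Cre array, a difference of -0.53 or a 1.44-fold lower signal. Its rank among all genes was 3330 on the array labelled Ssu72fl/fl and 1379 on the Lysm-Cre array. The local median was -0.042 and the spread 0.21, so Itgb1 stood at -2.27 spreads from genes of its signal. Of all compared genes, 3.28% lay more than 2 spreads below theirs, and Itgb1 was the only integrin of the 10 that did.

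Itga4 encodes the alpha4 chain, known as CD49d, which pairs with beta1 in VLA-4. It read 5.26 on the array labelled Ssu72fl/fl and 5.62 on the Lysm-Cre array, a difference of -0.36. Beside a local median of -0.076 and a spread of 0.22, it stood at -1.26 spreads. Itgb7, the other beta partner of alpha4, read 4.75 on the array labelled Ssu72fl/fl and 4.76 on the Lysm-Cre array. Its difference of -0.0013 was the smallest of the 10. The beta partners of alpha4 thus had unlike values, and Itgb7 was close to the floor, where the differences of all genes are small.

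The alphaV chain and its partners did not go together. Itgav read 5.07 on the array labelled Ssu72fl/fl and 5.10 on the Lysm-Cre array, a difference of -0.029 that matched its local median of -0.026. A second Itgav feature read 4.41 on the array labelled Ssu72fl/fl and 4.39 on the Lysm-Cre array, below the floor on both. Itgb5, whose product pairs with alphaV in a vitronectin receptor, read 5.32 on the array labelled Ssu72fl/fl and 5.74 on the Lysm-Cre array. That is a difference of -0.42, which stood at -1.66 spreads from a local median of -0.066. Itgb8, whose product with alphaV binds latent TGF-beta, read 4.78 on the array labelled Ssu72fl/fl and 4.60 on the Lysm-Cre array. The Lysm-Cre value alone was below the floor, so the difference could only be above 0. That makes it a bound of at least 0.13, against a local median of 0.021 and a spread of 0.089. Its signal ranked 11003, near the middle of all genes.

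**Figure D2:**
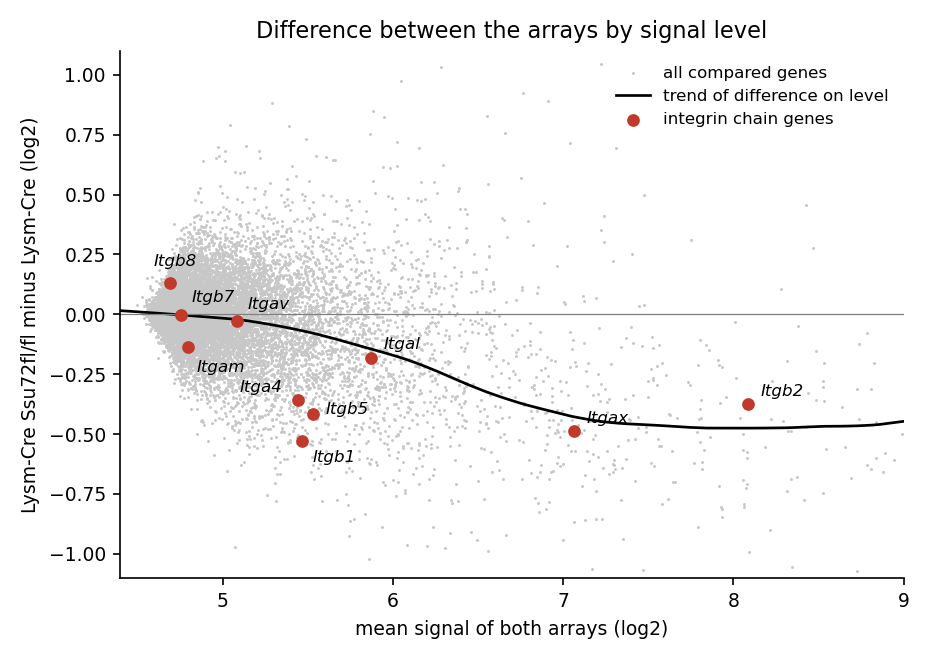
Difference between the arrays (vertical axis, Lysm-Cre Ssu72fl/fl minus Lysm-Cre, log2) against mean signal (horizontal axis, log2) for the compared genes (grey), with the trend of difference on level (black line) and the 10 integrin chain genes (red); points outside the axes are not drawn. Itgb2, Itgax and Itgal lie close to the trend, and Itgb1, Itgb5 and Itga4 below it.

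Taking the trend of difference on level out of the values separated the same chains. A smooth curve was drawn through median differences in narrow bins of level, and the level-adjusted difference is the distance from that curve. It was -0.46 for Itgb1, -0.34 for Itgb5 and -0.29 for Itga4. It was -0.059 for Itgax, -0.036 for Itgal and 0.099 for Itgb2, so the direction of Itgb2 turned. Itgam was at -0.13, Itgav at -0.0070, Itgb7 at 0.0013 and Itgb8 at a bound of at least 0.13 on the same scale. In all, 7 of 10 were below 0 after adjustment, against 45.7% of compared genes, and the median of the 10 was -0.048.

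**Figure D3:**
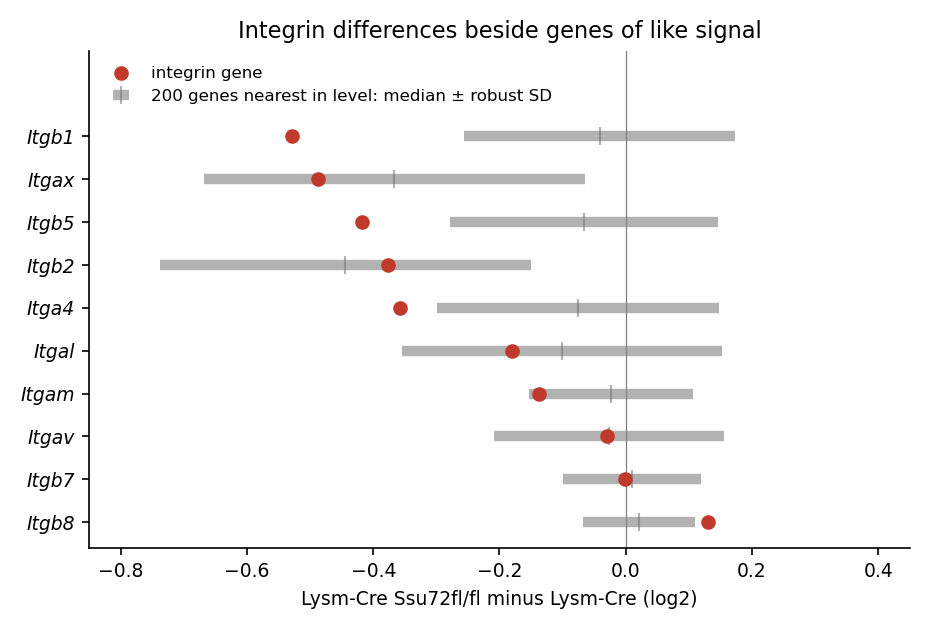
Difference of each integrin chain gene (red, log2, Lysm-Cre Ssu72fl/fl minus Lysm-Cre), with grey bars for the median and robust SD of the 200 compared genes nearest in mean signal. Itgb1, Itgb5 and Itga4 lie left of their bars, Itgb8 right of its bar and the other 6 inside theirs.

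The order of signals was similar on both arrays, with changes only among neighbours of close signal. On the array labelled Ssu72fl/fl the order from the top was Itgb2, Itgax, Itgal, Itgb5, Itga4, Itgb1, Itgav, Itgb8, Itgb7 and Itgam. On the Lysm-Cre array it was Itgb2, Itgax, Itgal, Itgb5, Itgb1, Itga4, Itgav, Itgam, Itgb7 and Itgb8. Itgb5, Itgb1 and Itga4 lay between 5.20 and 5.32 on the first and between 5.62 and 5.74 on the second. These gaps are smaller than the scatter of differences at their level (spread 0.21 to 0.22), so their order cannot be read. Signals of different features also depend on their probes, so a rank places a feature and does not count molecules.

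The other integrin chain genes were dim. Of 17 listed, 16 had a feature in use, and 10 of these were compared. Their median was 0.044, and 3 were lower and 7 higher; of all compared genes with a mean level from 4 to 5, 46.5% were lower. The difference between these chains and the brighter ones above was not tested. Itga6, the laminin-binding alpha6 chain, read 4.80 on the array labelled Ssu72fl/fl and 4.94 on the Lysm-Cre array (-0.14) and was lowest, at -1.12 spreads from its local median, next to -0.88 for Itgam at a similar level. Itga1, a collagen-binding chain, followed at -0.079, and Itga11 was at -0.0001, a bound. Itgb3, the beta chain of the platelet fibrinogen receptor and of another alphaV receptor, read 5.06 on the array labelled Ssu72fl/fl and 4.91 on the Lysm-Cre array (0.15) and was highest. Itga5, the fibronectin-binding partner of beta1, was at 0.094, Itga7 at 0.088, Itgb4 at 0.056, Itga9 at 0.049, Itga3 at 0.038 (a bound) and Itga2b at 0.029. Itga2, Itga8, Itgad, Itgae, Itgb2l and Itgb6 were below the floor on both arrays, and Itga10 was not analysed here.

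Genes that act on the switch of integrins into their binding state, both for and against it, were mostly lower. The median of 19 compared genes was -0.16, and 15 were lower and 4 higher, against 51.9% lower among all compared genes. Level-adjusted, 13 of the 19 were below 0, against 45.7%. Rap1b, a small GTPase that recruits talin, read 6.45 on the array labelled Ssu72fl/fl and 7.27 on the Lysm-Cre array, a difference of -0.82 against a local median of -0.31 and a spread of 0.28. Flna, an actin crosslinker that binds beta tails, was at -0.63 (level-adjusted -0.22). Apbb1ip, which encodes the Rap1 effector RIAM, was at -0.49 (level-adjusted -0.39), outside a spread of 0.23 around -0.051. Skap2, an adaptor gene, was at -0.47 and Rassf5, another Rap1 effector gene, at -0.46. Fermt3, the kindlin of blood cells, was at -0.41, Sharpin at -0.33 and Tln1, talin, at -0.31. Measured in spreads, Sharpin lay furthest below its local median in this list, at -2.18. Itgb1bp1 was at -0.16, or -1.41 spreads. Dok1 (0.23), an adaptor that competes with talin, Fermt2 (0.15) and Rasgrp2 (0.12), an exchange factor for Rap1, were highest.

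Signalling genes downstream of bound integrins were divided. The median of 23 compared genes was -0.087, with 16 lower and 7 higher, against 51.9% lower among all compared genes. Level-adjusted, 15 of the 23 were below 0, against 45.7%. The ITAM adaptors Fcer1g (-0.60) and Tyrobp (-0.40), through which beta2 integrins reach Syk, were lowest on the deposited scale, but level-adjusted they were at -0.15 and -0.020. Vav1, an exchange factor for Rac, was at -0.34 (level-adjusted -0.28). Parvg (0.32), the leukocyte parvin of the complex with integrin-linked kinase, Pxn (0.18), paxillin, and Parva (0.093) were highest. Parvg read 5.88 on the array labelled Ssu72fl/fl and 5.56 on the Lysm-Cre array.

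Genes of membrane proteins that associate with integrins held the lowest single value of these pathway lists. The median of 17 compared genes was -0.24 and became -0.012 when level-adjusted. On the deposited scale 14 were lower and 3 higher, against 51.9% lower among all compared genes. Level-adjusted, 9 of the 17 were below 0, against 45.7%. Cd53, a leukocyte tetraspanin, read 6.02 on the array labelled Ssu72fl/fl and 6.96 on the Lysm-Cre array (-0.94, level-adjusted -0.63). Fcgr3, an Fc receptor gene, was at -0.78 and, level-adjusted, was the lowest of this list at -0.67. Mertk, a receptor for apoptotic cells, was at -0.51 (level-adjusted -0.17). Trem2 (0.20), Cd37 (0.13) and Cd151 (0.078), of which the last 2 encode tetraspanins, were highest.

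**Figure D4:**
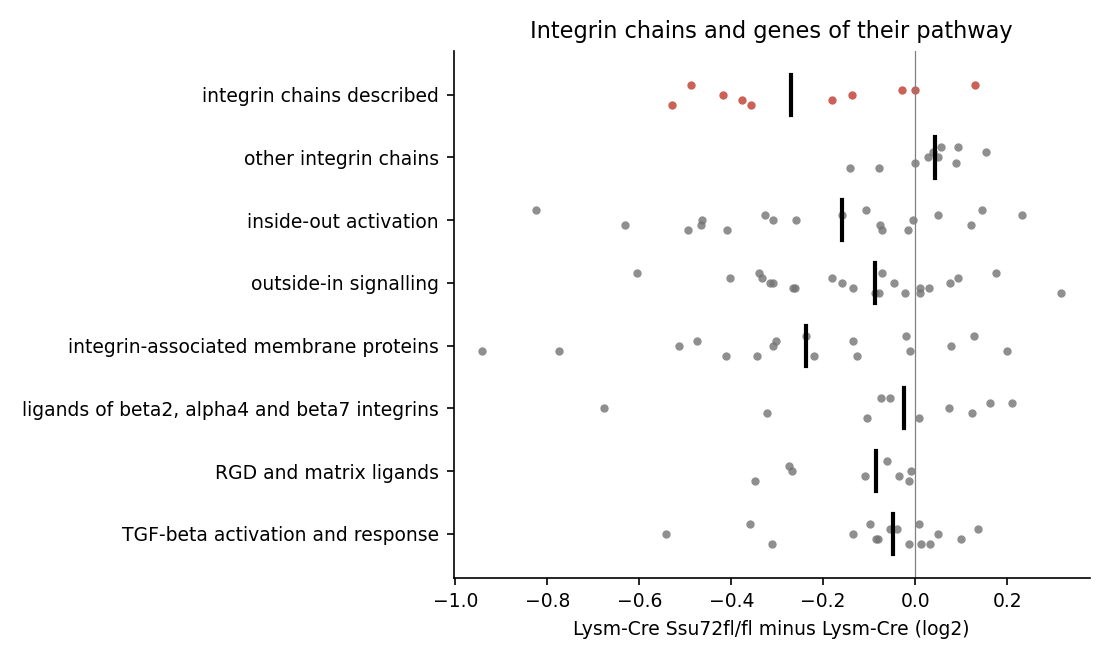
Differences (log2, Lysm-Cre Ssu72fl/fl minus Lysm-Cre) of the compared genes of each list, 1 point per gene with small vertical offsets for visibility and a black bar at the median. The integrin chains described have a median of -0.27, the other integrin chains 0.044 and the genes that act on integrin activation -0.16.

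Ligand genes of these receptors were close to 0 as a group. Of 10 compared ligand genes of beta2, alpha4 and beta7 receptors, 5 were lower and 5 higher (median -0.023). Hmgb1, a nuclear protein that acts as an alarm signal when released, was at -0.68 (level-adjusted -0.21), followed by F11r (-0.32), which encodes JAM-A, and Cdh1 (-0.10), E-cadherin. Thy1 (0.21), Icam1 (0.16, level-adjusted 0.31) and Icam5 (0.12) were highest. Icam1, the LFA-1 ligand, read 5.95 on the array labelled Ssu72fl/fl and 5.79 on the Lysm-Cre array. All 8 compared genes of RGD and matrix ligands were lower, with a median of -0.086, against 51.9% lower among all compared genes. Level-adjusted, 5 of the 8 stayed below 0, against 45.7%, and the median was -0.090. Col1a1 (-0.35), Fn1 (-0.27) and Thbs1 (-0.27) were lowest, and Npnt (-0.035, a bound), Mfge8 (-0.013) and Col4a1 (-0.0094) nearest to 0. Genes of TGF-beta release and response, the arm served by alphaV receptors, had a median of -0.047 (10 of 16 lower, 8 of 16 when level-adjusted). The receptor genes Tgfbr1 (-0.36) and Tgfbr2 (-0.31) followed the Smad corepressor gene Skil (-0.54). Ltbp2 (0.14), Lrrc32 (0.10), which encodes the TGF-beta tether GARP, and Ltbp1 (0.049, a bound) were highest.

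Several integrin chains are also made by other leukocytes, so marker genes of those cells are given beside them. Fewer cells of a type and less RNA per cell cannot be told apart on these arrays. Of 12 compared markers of interstitial macrophages and monocytes, 11 were lower, and also 11 when level-adjusted. Among all compared genes, 51.9% were lower and 45.7% were below 0 when level-adjusted. The mean signal of these markers was 5.17 on the array labelled Ssu72fl/fl and 5.44 on the Lysm-Cre array. Their median difference was -0.28 (level-adjusted -0.26). Cx3cr1 (-0.63) and C1qb (-0.48) led them, Folr2 (0.12) was higher, and Ly6c2 was below the floor on the array labelled Ssu72fl/fl alone (4.52, against 4.76 on the Lysm-Cre array). This list was lower, as Itgb1, Itga4 and Itgb5 were, and its part in their values was not tested. Alveolar macrophage markers were lower in 14 of 15 (median -0.30), but level-adjusted 8 of 15 were below 0 and their median was -0.011. Neutrophil markers had a mean signal of 4.76 on the array labelled Ssu72fl/fl and 4.78 on the Lysm-Cre array, 6 of 7 compared were lower, Csf3r was brightest, and Ly6g, Cxcr2 and Camp were below the floor on both. Dendritic cell markers averaged 5.28 on the array labelled Ssu72fl/fl and 5.38 on the Lysm-Cre array, with Xcr1, Zbtb46 and Fscn1 below the floor on both and Cd209a brightest, at 8.65 and 8.97 in that order. T, NK and innate lymphoid markers averaged 4.83 on the array labelled Ssu72fl/fl and 4.75 on the Lysm-Cre array. Of these, 4 of 11 were below the floor on both arrays, among them Cd3e and Cd3g, and Gata3 was brightest. B and plasma cell markers averaged 5.12 and 5.19, array labelled Ssu72fl/fl first. Ighm was brightest, at 6.88 and 7.46, and Ms4a1 and Jchain were below the floor. Eosinophil, mast cell and basophil markers averaged 4.54 and 4.50 in the same order (Epx brightest, 5 of 8 below the floor, Ccr3 and Il5ra among them). Markers of alveolar type 2, type 1 and airway cells averaged 5.73 and 5.85 in that order, with Scgb3a2 below the floor. This average covers very bright genes. Sftpc was brightest, at 8.35 and 8.71 (rank 74), followed by Scgb1a1 at 7.99 and 8.02 (rank 113), array labelled Ssu72fl/fl first. Endothelial, fibroblast and platelet markers averaged 5.01 and 5.08 in the same order, with Acta2 brightest and Pf4 and Pdgfra below the floor. Level-adjusted, 6 of 7 compared neutrophil markers and 7 of 10 endothelial, fibroblast and platelet markers were below 0. The counts were 4 of 6 for dendritic cell, 3 of 7 for T, NK and innate lymphoid and 3 of 5 for B and plasma cell markers. They were 5 of 10 for alveolar type 2, type 1 and airway markers and 0 of 3 for eosinophil, mast cell and basophil markers.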

How the data were processed

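Gene expression was read on Affymetrix gene-level arrays, 1 per genotype, each hybridised with biotinylated cRNA from 6 ug total RNA, per the labels' protocols. The authors deposited 1 value per feature, taken here as log2 from the range of the values, 4.23 to 13.5. MAS5 is named, with no role, in the submitters' processing notes. The sources used here do not give the background correction, scaling or offset. An offset would shrink differences at low signal.

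Of 33793 features, 23521 carried 1 gene symbol and 1814 several. Symbols of 23328 were updated through the Entrez identifier to RefSeq (GRCm38.p6). Each gene took its feature with the highest mean. Values below the floor, the 50th percentile of all values, were set to it, so 2081 of 13015 compared genes have only a bound. The level trend was a local linear fit (span 0.3) through medians of level bins 0.1 wide, holding at least 10 features. Depth does not apply to arrays. The members, the gene lists and the form of the trend were chosen with earlier results of these data known. The text names all 10 integrins, the other chains, up to 3 genes at each end of each pathway list, in each marker list the brightest gene and defining markers below the floor, and the 2 genes nearest in both values to each integrin above level 6. Fermt3, Skap2, Rassf5, Sharpin, Tln1, Itgb1bp1, C1qb, Folr2, Plet1, Siglecf, Fabp4, Krt19 and the neighbouring genes were named after their values were seen. Level-adjusted medians and counts of lists use the deposited values without the floor. The steps were tested on simulated data. Alternatives were median centring, quantile normalization, trend removal, other feature choices, floors and folds. Work was done in Python 3.11.15 with pandas 2.3.3 and numpy 2.4.6.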

Additional observations from a re-analysis of the deposited data

How the results depend on the processing

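Of 98 values recomputed under 9 alternative settings, 91 kept their direction and moved by less than the spread at their level, or, for counts, stayed within 1.5 times. Many of these could not move. Of the 10 integrins only Itgav had a second feature, so the feature choices left the other genes unchanged. The floor settings could only change Itgb8 or leave dim genes out. The values that did not stay concern signal level and the fold used. With the level trend removed, Itgb2 turned to 0.099 and Itgb7 to 0.0013, Itgax moved to -0.059 and the median of the 10 integrins to -0.048. With quantile normalization, Itgb2 turned to 0.079 and Itgax moved to -0.094. Itgal went to -0.049 and the median of the 10 to -0.072, against -0.27 as deposited. Both shifts were smaller than the spread and are counted among the 91. At the lowest fold tried, 0.32 on the log2 scale in place of 1.5-fold, 5 integrins were lower in place of 0. Itgb1 ranged from -0.54 to -0.46, Itgb5 from -0.43 to -0.34 and Itga4 from -0.37 to -0.29 over their 7 alternatives. Of these, only median centring, quantile normalization and trend removal could move those genes. The floor at the 75th percentile left Itgam, Itgb7 and Itgb8 without a value, and the dimmer feature left Itgav without one. No paired analysis was possible because each genotype has 1 array. With 1 array per genotype, no scatter between mice was measured.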

Other observations

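Some protein-coding genes next to the integrin genes on their chromosomes, in RefSeq order, are given here, named after their values were seen. Many other neighbours were below the floor on both arrays. Others passed it, such as Pycard (0.10) near Itgam, Cox6a2 (0.0066) near Itgax, Heg1 (0.0034) near Itgb5 and Sp8 (0.016) near Itgb8. Behind Itgal (-0.18), the zinc finger genes Zfp768 and Zfp747 were higher. Zfp768 read 5.74 on the array labelled Ssu72fl/fl and 5.33 on the Lysm-Cre array (0.41), and Zfp747 read 6.24 and 5.49 in that order (0.75). Zfp747 was more than 1.5-fold higher, a size that 0.315% of compared genes reached upwards. On the other side of Itgal, Dctpp1 was at 0.012 and Sephs2 was below the floor on both arrays. Next to Itgb1 (-0.53), Nrp1, which encodes a co-receptor for semaphorins and VEGF, was at -0.031. Near Itgb2 (-0.38), Pttg1ip (0.19), Sumo3 (0.17) and Fam207a (0.029) were higher. Next to Itga4 (-0.36), Ube2e3, a ubiquitin-conjugating enzyme gene, was at 0.12, and next to Itgb5 (-0.42), Muc13 was at 0.063 and Umps, of pyrimidine synthesis, at -0.15. The 4 nearest neighbours of Itgb7 (-0.0013) lay between -0.037 and 0.036, and Zc3h15, next to Itgav (-0.029), was at 0.025.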
